A study of Brassica oleracea var. capitata with 6 samples.

Results

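The transcripts described here are the 354 long non-coding RNAs (lncRNAs) whose assembled locus carries a number from 80000 up to, but not including, 85000. They are all transcripts with such a number in a table of 4459 lncRNA transcripts, and they belong to 201 of its 3061 loci. The range was chosen with earlier results of these data known, so comparisons of its members with the whole table are descriptions. A name such as MSTRG.84276.1 is transcript 1 of locus 84276, as the assembler StringTie numbered them. The lowest locus number that carried a member was 80046 and the highest was 84947, while the nearest lncRNA loci outside the range were 79996 and 85085.

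LncRNAs are transcripts that are not predicted to encode a protein. In plants, known examples act on nearby genes in cis, on distant genes in trans, or as decoys for small RNAs, but most assembled lncRNAs have no known function. Transcripts of 1 locus are alternative assemblies of overlapping exons, and StringTie divides the reads of shared exons among them by estimation. A level of 1 transcript therefore depends on how the reads of its locus were divided, and the sum over a locus depends on this less. Each sum covers only the transcripts of the locus that are listed as lncRNAs. Transcript numbers have gaps at some loci, so other assembled transcripts of those loci may be missing from the sums.

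The RNA came from leaves of cabbage (Brassica oleracea var. capitata) at the harvesting stage, in 3 libraries of wild-type plants and 3 libraries of the glossy mutant *nwgl*. The *nwgl* plant comes from the inbred line G287 and has a non-wax glossy leaf surface, and the labels do not name the line of the wild-type plants. Cuticular wax is the layer of very-long-chain lipids that gives cabbage leaves their bloom, and the study compared the genotypes to find RNAs that change when it is reduced. The plants grew in the field, and the labels give no treatment. The study calls the libraries biological replicates, and the labels say nothing of pooling. Levels were given as FPKM, which scales the fragments read from a transcript by its length and by the mapped fragments of the library.

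The members were low in both genotypes. The mean FPKM over the 6 libraries had a median of 0.1 over the 354 members, against 0.108 over the 4105 lncRNAs of the other loci, and 22 members (6.21%) reached a mean of 1 against 303 (7.38%) elsewhere. Values above 0 in all 6 libraries were listed for 83 members, and 73 members were above 0 in a single library. Most loci held 1 transcript: 154 of the 201 did, the other 47 held 200 transcripts between them, and the largest, locus 81399, held 19.

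Members above 0 numbered 188, 208 and 181 in the 3 wild-type libraries and 216, 208 and 213 in the 3 *nwgl* libraries. These ranges met at 208, and the difference did not pass an exact two-sided permutation test (p = 0.2, n = 3 per genotype).

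The summed FPKM of the members was 74.5, 101.7 and 85.0 in the wild-type libraries and 115.5, 116.7 and 120.6 in the *nwgl* libraries. Every *nwgl* library was thus above every wild-type library, with means of 87.1 ± 13.7 and 118 ± 2.68 (SD, n = 3 each). The ratio of the means was 1.35. The exact two-sided permutation test gave p = 0.1, the smallest value that 3 libraries against 3 allow. The sum over the whole lncRNA table was 1470, 2660 and 2777 in wild-type and 2048, 1999 and 2118 in *nwgl* and overlapped between the genotypes. After the libraries were scaled by median-of-ratios size factors, the members' sums overlapped as well, at 72.3, 82.0 and 107.3 in wild-type and 127.5, 92.6 and 137.9 in *nwgl* (exact permutation p = 0.2).

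A few loci carried that difference. The 8 loci called higher in *nwgl* (described below) summed to 1.15, 3.31 and 3.11 FPKM in wild-type and to 45.2, 46.7 and 32.1 FPKM in *nwgl*. When the 10 loci called in either direction were left out, which is a choice made on this same contrast, the remaining members summed to 65.7, 88.0 and 73.2 FPKM in wild-type and to 69.7, 68.6 and 87.6 FPKM in *nwgl*, and the genotypes overlapped.

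The most abundant member, MSTRG.80501.1, was at 15.5, 3.27 and 1.70 FPKM in wild-type and at 5.07, 2.21 and 14.4 FPKM in *nwgl*. Its replicates ranged nearly as widely within each genotype as over all libraries. The next by mean level, MSTRG.84238.1, was at 1.24, 3.49 and 3.81 FPKM in wild-type and at 4.48, 6.09 and 6.70 FPKM in *nwgl*. Its groups did not overlap, but its log2 fold change of 1.12 ± 0.61 (SE) did not pass the test (limma, adjusted p = 0.458). A further 5 of the 10 most abundant members overlapped between the genotypes, namely MSTRG.82260.6, MSTRG.82880.1, MSTRG.82671.1, MSTRG.82096.2 and MSTRG.83542.1, and their adjusted p values ran from 0.613 to 0.802 (limma). The remaining 3 of these 10, MSTRG.81713.23, MSTRG.81531.2 and MSTRG.80871.2, are described with their loci.

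Differences between the genotypes were tested with limma on log2(FPKM + 0.1) over all lncRNAs with a mean FPKM of at least 0.1, and p values were adjusted over all of them by the Benjamini-Hochberg method. Called transcripts are those with an adjusted p under 0.05 whose levels differed by 1 or more on the log2 scale. The study used another method, DESeq, and reported more lncRNAs of the table as different. They include 35 of the members, some of which were not called or were too low to be tested here. A member that is not called has therefore not been shown to be unchanged. Of the 354 members, 178 were tested. Of these, 12 were called, 11 higher and 1 lower in *nwgl*, which is 6.74% of the tested members. Over all loci 65 of 2340 tested lncRNAs were called (2.78%), 1.92% higher and 0.855% lower, and the members are among them. Without an adjustment, 37 of the 178 members (20.8%) had p under 0.05 against 14.4% of all tested lncRNAs. The median log2 fold change was 0.08 over the tested members and 0.01 over all tested lncRNAs, and 95 members lay above 0 and 83 below.

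Leaving out 1 library lowered the count of 12 to 6, 6 and 7 without wild-type replicates 1, 2 and 3, and to 5, 5 and 7 without *nwgl* replicates 1, 2 and 3. Each count of 7 includes 1 member that is not among the 12. It was MSTRG.80871.4 without wild-type replicate 3 and MSTRG.81713.23 without *nwgl* replicate 3. MSTRG.81399.22, MSTRG.81531.2, MSTRG.84276.1 and MSTRG.84276.6 were called in each of these 6 fits, whereas MSTRG.81399.23, MSTRG.81713.17, MSTRG.82736.2, MSTRG.83647.4 and MSTRG.84152.1 were called in none of them. With a pseudocount of 1 in place of 0.1 the calls were 5, namely MSTRG.80871.2, MSTRG.81399.22, MSTRG.81531.2, MSTRG.84276.1 and MSTRG.84276.6.

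Without regard to the test, 49 of the 354 members (13.8%) had every *nwgl* library above every wild-type library, against 342 of 4459 (7.67%) over the whole table. In the other direction the counts were 34 members (9.6%) and 263 lncRNAs (5.9%). In bulk leaf RNA, fewer cells of a type that makes a transcript and less RNA per cell cannot be told apart.

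Many members were listed at 0 in 1 genotype. In 29 members (8.19%), from 11 loci, the value was 0 in the 3 wild-type libraries and above 0 in the 3 *nwgl* libraries. Over the table this held for 126 of 4459 lncRNAs (2.83%), from 94 loci. In 14 members (3.95%), also from 11 loci, the value was above 0 in the 3 wild-type libraries and 0 in the 3 *nwgl* libraries. Over the table this held for 101 lncRNAs (2.27%), from 91 loci. The count of 14 members rose to 23 when wild-type replicate 1 was left out. The first group reached higher levels, with mean FPKM in *nwgl* from 0.0611 to 5.59 and a median of 0.248, while the second group had mean FPKM in wild-type from 0.0806 to 0.299 and a median of 0.219. Of the first group 18 were tested and 8 called, and of the second 9 were tested and 0 called by limma, 6 of them with an unadjusted p under 0.05. The study gives its sequencing yield in total and on average, but not the reads of each library or behind each value. A value of 0 therefore says that StringTie assigned no reads, not that the RNA was absent.

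**Figure D1:**
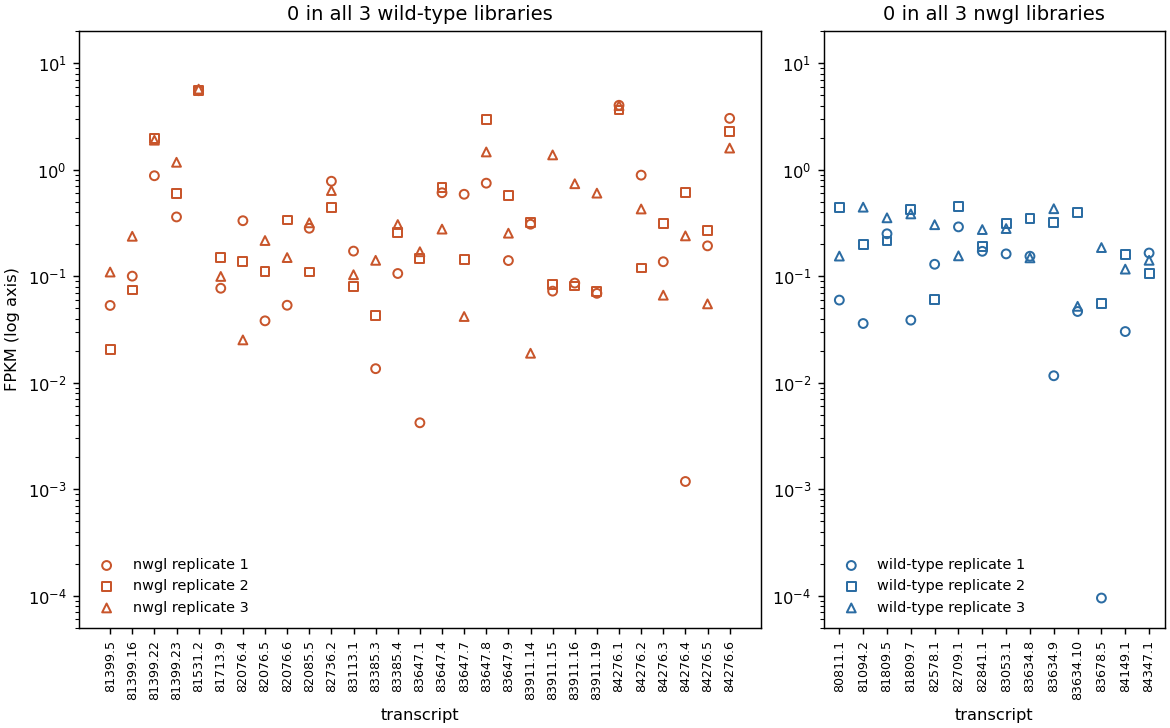
FPKM (log axis) of each member that was 0 in one genotype and above 0 in all libraries of the other, as 29 transcripts at 0 in wild-type (left, *nwgl* values) and 14 transcripts at 0 in *nwgl* (right, wild-type values), each symbol being 1 replicate. The highest mean over the replicates is 5.59 FPKM in the left panel (MSTRG.81531.2) and 0.299 FPKM in the right panel (MSTRG.82709.1). A few points, such as MSTRG.84276.4 in *nwgl* replicate 1, lie far below the other replicates.

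The on-off transcripts shared loci unevenly between the directions. The 29 transcripts above 0 in *nwgl* included 6 of locus 84276, 5 of locus 83647, 4 each of loci 81399 and 83911, 3 of locus 82076 and 2 of locus 83385, with 1 each at 81531, 81713, 82085, 82736 and 83113. The 14 transcripts above 0 in wild-type included 3 of locus 83634 and 2 of locus 81809, and the other 9 came from 9 loci. Counted as whole loci, with all listed transcripts summed, 7 of the 201 loci (3.48%) were 0 in wild-type and above 0 in each *nwgl* library, against 75 of 3061 loci (2.45%) over the table. The reverse held at 9 of the 201 loci (4.48%), against 73 of 3061 (2.38%). Counted as whole loci, the first direction was thus not the more frequent among the members. Both shares were above those of the table, and the differences were not tested.

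At 2 loci, an abundant transcript was listed in *nwgl* alone. MSTRG.81531.2, the only listed transcript of its locus, was 0 in each wild-type library and 5.53, 5.51 and 5.72 FPKM in *nwgl* (mean 5.59 ± 0.117, SD, n = 3). Relative to their mean, its replicates lay closer together than those of any other called member, and its adjusted p was 0.00083 (limma), the lowest of the 12. At locus 84276 all 7 listed transcripts were 0 in each wild-type library. MSTRG.84276.1 was at 4.03, 3.65 and 4.0 FPKM in *nwgl* (adjusted p = 0.000878, limma). MSTRG.84276.6 was at 3.04, 2.27 and 1.60 FPKM (adjusted p = 0.00169, limma). These 2 transcripts made up most of the locus, and their groups were separated by more than the whole range among the *nwgl* replicates. MSTRG.84276.2 was at 0.891, 0.119 and 0.428 FPKM (adjusted p = 0.137, limma). It and a further 3 transcripts of the locus were above 0 in each *nwgl* library and had means from 0.172 to 0.479 FPKM, and MSTRG.84276.7 was at 0.0594, 0.621 and 0 FPKM. None of these 5 was called. The sum of the locus was 8.36, 7.85 and 6.39 FPKM in *nwgl* (adjusted p = 5.92e-05, limma over locus sums).

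Locus sums were tested in the same way over all 3061 loci. Of the 201 loci 100 were tested, and 10 were called, 8 higher and 2 lower in *nwgl*, against 75 of 1629 tested loci over the table (4.6%, with 2.89% higher and 1.72% lower). The loci called higher were 81531, 81713, 82076, 82085, 82736, 83647, 83911 and 84276, and those called lower were 80871 and 83634. At 4 of them (82076, 82085, 83634 and 83911) no single transcript was called by limma, while at an unadjusted p under 0.05 locus 83634 had 3 and locus 82085 had 1. Conversely, loci 81399 and 84152 held called transcripts and were not called as sums. The count of 10 fell to 6 without wild-type replicate 3, to 4 without *nwgl* replicate 1 and to 5 without *nwgl* replicate 2, and loci 81531, 83647, 83911 and 84276 were called in each fit with 1 library left out.

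**Figure D2:**
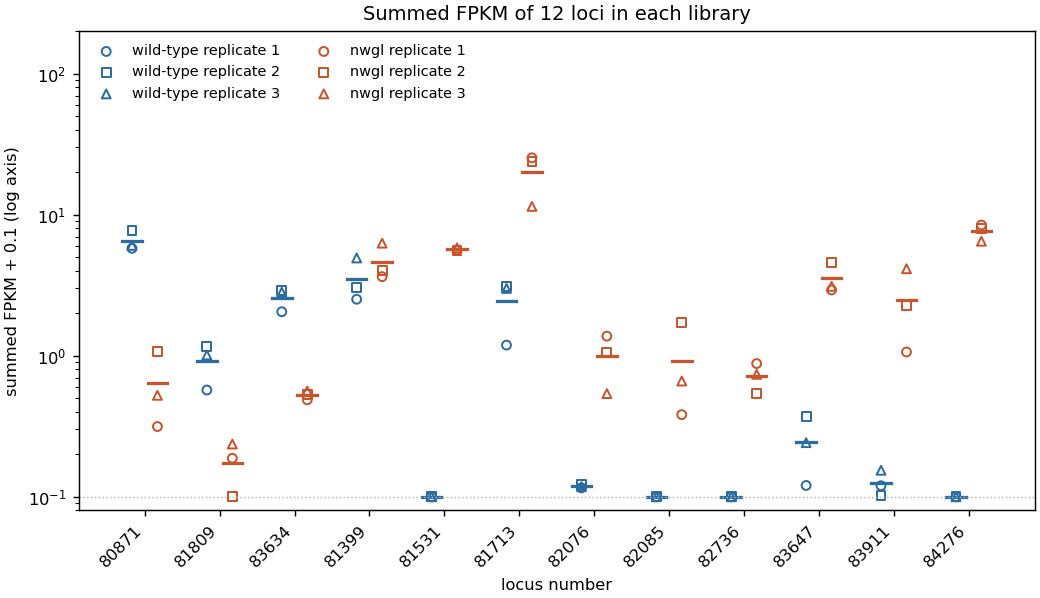
Summed FPKM of the listed transcripts of 12 loci in each library, plotted as FPKM + 0.1 on a log axis, with open symbols for replicates, bars for genotype means and a dotted line at a value of 0. The 10 called loci are shown with 81809 and 81399, which were not called, and 81399 is the only one of the 12 whose genotypes overlap.

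Locus 81713 was the most abundant of the changed loci. Its 13 listed transcripts summed to 1.09, 3.01 and 2.90 FPKM in wild-type and to 25.2, 23.7 and 11.4 FPKM in *nwgl* (log2 fold change 3.09 ± 0.57, SE, adjusted p = 0.0103, limma). The call was lost without *nwgl* replicate 1 or replicate 2 (highest adjusted p = 0.121). The 1 on-off transcript of the locus, MSTRG.81713.9, was at 0.0771, 0.15 and 0.0996 FPKM in *nwgl*. In 7 of the 13 transcripts every *nwgl* library was above every wild-type library, and in none was it below. MSTRG.81713.24 was at 0.181, 0 and 0.156 FPKM in wild-type and at 5.39, 3.97 and 0.834 FPKM in *nwgl* (log2 fold change 3.83 ± 0.79, SE, adjusted p = 0.0309, limma). MSTRG.81713.17 was at 0.0728, 0.018 and 0.000229 FPKM in wild-type and at 0.807, 0.53 and 0.613 FPKM in *nwgl* (log2 fold change 2.55 ± 0.55, SE, adjusted p = 0.0367, limma). These 2 were called, and MSTRG.81713.24 kept its call without *nwgl* replicate 3 alone among the fits with 1 library left out.

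The most abundant transcript of that locus, MSTRG.81713.23, was not called by limma, although the study reported it as different. It was at 0.0946, 0.521 and 0.671 FPKM in wild-type and at 10.1, 10.1 and 1.54 FPKM in *nwgl* (adjusted p = 0.0585, limma). The adjusted p was 0.0485 with median-of-ratios scaling, 0.0494 with quantile normalization, 0.014 with no filter on low values and 0.0479 without *nwgl* replicate 3. *nwgl* replicate 3 stood apart at this locus in several transcripts. MSTRG.81713.18, MSTRG.81713.23 and MSTRG.81713.24 were lower there than in the other *nwgl* replicates, and MSTRG.81713.11 was higher, at 3.20 FPKM against 0.28 and 0. MSTRG.81713.13 was above 0 in *nwgl* replicate 1 alone, at 2.89 FPKM.

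Loci 83634 and 83647 carry near numbers and changed in opposite directions. The study's lists of genes within 100 kb give 19 genes for the first and 14 for the second, and 6 are on both lists (31.6% and 42.9% of them). The 13 listed transcripts of locus 83634 summed to 1.95, 2.79 and 2.72 FPKM in wild-type and to 0.387, 0.429 and 0.462 FPKM in *nwgl* (log2 fold change −2.28 ± 0.48, SE, adjusted p = 0.0229, limma). The 9 listed transcripts of locus 83647 summed to 0.0203, 0.272 and 0.142 FPKM in wild-type and to 2.83, 4.49 and 3.01 FPKM in *nwgl* (log2 fold change 3.97 ± 0.58, SE, adjusted p = 0.00276, limma). The groups did not overlap at either locus. The call of 83634 was kept without wild-type replicate 1 and lost without each of the other libraries (highest adjusted p = 0.144), whereas that of 83647 was kept throughout.

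At locus 83634, 5 transcripts had every *nwgl* library below every wild-type library. The most abundant of them, MSTRG.83634.12, was at 0.212, 0.645 and 0.543 FPKM in wild-type and at 0.0797, 0.0348 and 0.115 FPKM in *nwgl* (adjusted p = 0.232, limma). MSTRG.83634.13 was at 0.27, 0.317 and 0.763 FPKM in wild-type and at 0, 0 and 0.0791 FPKM in *nwgl* (adjusted p = 0.13, limma). The other 3 were the on-off transcripts MSTRG.83634.8 at 0.154, 0.349 and 0.149 FPKM, MSTRG.83634.9 at 0.0116, 0.321 and 0.431 FPKM and MSTRG.83634.10 at 0.0467, 0.397 and 0.0522 FPKM in wild-type. MSTRG.83634.15 overlapped, at 0.222, 0.184 and 0.0709 FPKM in wild-type and at 0.28, 0.171 and 0.216 FPKM in *nwgl*, so that not every transcript of the locus was lower.

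At locus 83647, 8 of 9 transcripts were 0 in each wild-type library, and 5 of these were above 0 in each *nwgl* library. MSTRG.83647.8 was at 0.749, 2.95 and 1.47 FPKM in *nwgl* (adjusted p = 0.00702, limma) and MSTRG.83647.4 at 0.609, 0.678 and 0.277 FPKM (adjusted p = 0.0435, limma). MSTRG.83647.9 was at 0.14, 0.569 and 0.254 FPKM (adjusted p = 0.183, limma). The call of MSTRG.83647.8 was lost without *nwgl* replicate 2 or replicate 3 (highest adjusted p with a library left out 0.0537). The remaining transcript, MSTRG.83647.11, was the only one read in wild-type, at 0.0203, 0.272 and 0.142 FPKM, and it was 0, 0 and 0.241 FPKM in *nwgl*. It supplied the whole wild-type sum of the locus.

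Locus 83911 was near 0 in wild-type and spread widely in *nwgl*. Its 10 listed transcripts summed to 0.0198, 0.00149 and 0.0541 FPKM in wild-type and to 0.963, 2.18 and 4.04 FPKM in *nwgl* (log2 fold change 4.13 ± 0.63, SE, adjusted p = 0.00331, limma). In 6 of the 10 transcripts every *nwgl* library was above every wild-type library, and of the 7 that were tested 0 were called alone by limma and 0 had an unadjusted p under 0.05. The *nwgl* replicates divided the sum differently. MSTRG.83911.15 was at 0.0725, 0.0841 and 1.38 FPKM and MSTRG.83911.16 at 0.0863, 0.0809 and 0.74 FPKM in *nwgl* replicates 1, 2 and 3. MSTRG.83911.14 was at 0.308, 0.318 and 0.0189 FPKM. Replicate 3 was thus the highest for the former 2 and the lowest for the last.

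Locus 80871 held the only called member that was lower in *nwgl*. MSTRG.80871.2 was at 2.97, 4.01 and 4.63 FPKM in wild-type and at 0.117, 0.205 and 0.161 FPKM in *nwgl* (log2 fold change −3.92 ± 0.55, SE, adjusted p = 0.00418, limma). The mean in wild-type was 24 times that in *nwgl*, and the gap between the groups was larger than the range within either. The other listed transcripts of the locus, MSTRG.80871.3, MSTRG.80871.4 and MSTRG.80871.5, had wild-type means of 1.19, 0.662 and 0.696 FPKM and *nwgl* means of 0.216, 0 and 0.16 FPKM, with adjusted p values from 0.202 to 0.266 (limma). The sum of the 4 was 5.68, 7.62 and 5.96 FPKM in wild-type and 0.215, 0.973 and 0.424 FPKM in *nwgl* (log2 fold change −3.53 ± 0.56, SE, adjusted p = 0.00488, limma). Without *nwgl* replicate 1 the call was lost for the transcript (adjusted p = 0.0535) and for the sum (adjusted p = 0.0641).

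Locus 81399 held 2 called transcripts, while its sum was not called. The 19 listed transcripts summed to 2.42, 2.95 and 4.84 FPKM in wild-type and to 3.54, 3.92 and 6.19 FPKM in *nwgl*, which overlapped (log2 fold change 0.43 ± 0.50, SE, adjusted p = 0.742, limma). In 8 of them every *nwgl* library was above every wild-type library, and in 4 it was below. The 8 summed to 0, 0.0268 and 0.00881 FPKM in wild-type and to 1.94, 3.07 and 4.24 FPKM in *nwgl*. The 4 summed to 1.79, 1.57 and 2.6 FPKM in wild-type and to 0.807, 0.358 and 0.761 FPKM in *nwgl*. Since these groups of transcripts were chosen by that same separation, their sums are a description and were not tested.

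As shares of the sum over the listed transcripts, the 8 made up at most 0.907% of the wild-type sum and 54.7%, 78.3% and 68.6% of the *nwgl* sum. The 4 made up 73.9%, 53.2% and 53.8% of the wild-type sum and 22.8%, 9.12% and 12.3% of the *nwgl* sum. Most of the level of the 8 in *nwgl* was in MSTRG.81399.22, at 0 in each wild-type library and 0.879, 1.97 and 1.90 FPKM in *nwgl* (adjusted p = 0.00429, limma), and MSTRG.81399.23, at 0 and at 0.361, 0.595 and 1.18 FPKM (adjusted p = 0.0309, limma). The other 6 of the 8, MSTRG.81399.5, MSTRG.81399.6, MSTRG.81399.7, MSTRG.81399.10, MSTRG.81399.16 and MSTRG.81399.19, had *nwgl* means from 0.0611 to 0.177 FPKM and were too low to be tested. The most abundant of the 4 was MSTRG.81399.25, at 0.942, 0.853 and 1.42 FPKM in wild-type and 0.498, 0.233 and 0.71 FPKM in *nwgl* (adjusted p = 0.464, limma), and none of the 4 was called. MSTRG.81399.13 stayed within the wild-type range in each *nwgl* library.

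**Figure D3:**
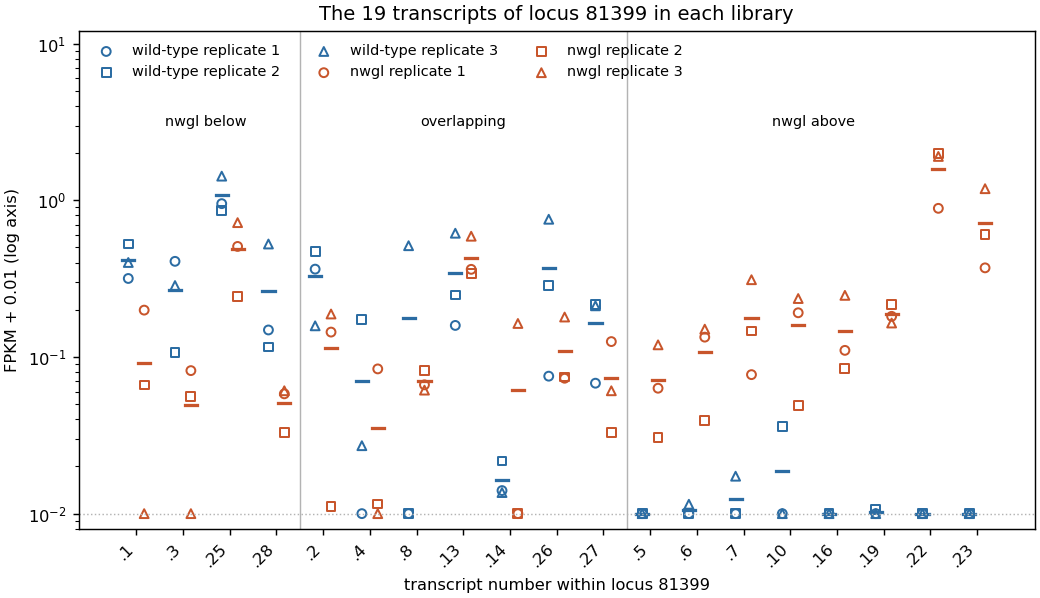
FPKM + 0.01 (log axis) of the 19 listed transcripts of locus 81399 in each library, with open symbols for replicates, bars for genotype means and a dotted line at a value of 0. The panels hold the 4 transcripts in which every *nwgl* library was below every wild-type library, the 7 that overlapped and the 8 in which it was above, of which MSTRG.81399.22 and MSTRG.81399.23 were called.

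The smaller called loci were 0 or near 0 in wild-type. MSTRG.82736.2, the only listed transcript of its locus, was 0 in wild-type and 0.78, 0.439 and 0.638 FPKM in *nwgl* (adjusted p = 0.0223, limma). Locus 82076 held 5 listed transcripts and summed to 0.0156, 0.0229 and 0.018 FPKM in wild-type and to 1.28, 0.951 and 0.439 FPKM in *nwgl* (adjusted p = 0.0175, limma). Of its transcripts MSTRG.82076.4 was at 0.332, 0.137 and 0.0252 FPKM, MSTRG.82076.5 at 0.0381, 0.112 and 0.217 FPKM and MSTRG.82076.6 at 0.0534, 0.337 and 0.15 FPKM in *nwgl*, each at 0 in wild-type and too low to be tested. No *nwgl* replicate was the highest for all 3. Locus 82085 held 2 listed transcripts, was 0 in wild-type and summed to 0.282, 1.62 and 0.562 FPKM in *nwgl* (adjusted p = 0.0364, limma). MSTRG.82085.5 was above 0 in each *nwgl* library, at 0.282, 0.11 and 0.318 FPKM (adjusted p = 0.245, limma). Loci 82076 and 82085 carry near numbers and the study's lists of genes within 100 kb share 16 genes, which are 94.1% of the first list and 80.0% of the second. With 1 library left out the call of 82085 was lost each time (highest adjusted p = 0.211). That of 82076 was lost in 3 of the 6 fits (without wild-type replicate 3 or *nwgl* replicate 1 or 2, highest adjusted p = 0.127), and that of 82736 in 4 (without wild-type replicate 3 or any *nwgl* replicate, highest adjusted p = 0.127). These 3 loci were not called with a pseudocount of 1.

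Several loci were lower in *nwgl* without a call. Locus 81809, with 4 listed transcripts, summed to 0.471, 1.06 and 0.912 FPKM in wild-type and to 0.0874, 0 and 0.137 FPKM in *nwgl* (log2 fold change −2.41 ± 0.61, SE, adjusted p = 0.0507, limma). It passed with no filter on low values (adjusted p = 0.0461) and with quantile normalization (adjusted p = 0.0289). MSTRG.84230.1 was at 0.363, 0.999 and 1.14 FPKM in wild-type and 0.0652, 0.173 and 0 FPKM in *nwgl* (adjusted p = 0.102, limma). Its groups did not overlap. As a locus sum it had an adjusted p of 0.0752 (limma) and passed with quantile normalization (adjusted p = 0.0404). Locus 82841 was at 0.171, 0.467 and 0.801 FPKM in wild-type and at 0 in each *nwgl* library (adjusted p = 0.0785, limma), and it passed with a pseudocount of 0.01 (adjusted p = 0.0417).

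Of the 14 transcripts at 0 in *nwgl*, MSTRG.82709.1 had the highest level, at 0.291, 0.452 and 0.155 FPKM in wild-type (adjusted p = 0.166, limma). At locus 81809, MSTRG.81809.5 was at 0.25, 0.214 and 0.354 FPKM (adjusted p = 0.161, limma) and MSTRG.81809.7 at 0.0387, 0.424 and 0.385 FPKM (adjusted p = 0.302, limma). The first of these was the steadier among the wild-type replicates. MSTRG.83053.1 was at 0.162, 0.311 and 0.28 FPKM (adjusted p = 0.198, limma). MSTRG.82841.1 was at 0.171, 0.191 and 0.274 FPKM (adjusted p = 0.249, limma). In both, the highest wild-type replicate was below 2 times the lowest. MSTRG.81094.2 was at 0.036, 0.198 and 0.445 FPKM (adjusted p = 0.399, limma) and MSTRG.80811.1 at 0.0597, 0.446 and 0.155 FPKM (adjusted p = 0.386, limma), both lowest in wild-type replicate 1. MSTRG.82578.1, at 0.13, 0.061 and 0.305 FPKM, and MSTRG.84347.1, at 0.165, 0.105 and 0.141 FPKM, were too low to be tested.

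Among the 47 loci with 2 or more listed transcripts, all transcripts had the higher mean in *nwgl* at 13 (27.7%) and the lower mean at 12 (25.5%), and the directions were mixed at 22 (46.8%). Over the 576 such loci of the table the shares were 20%, 24.7% and 55.4%. At 7 of the 47 loci (14.9%) 2 or more transcripts had every *nwgl* library above every wild-type library, against 26 of 576 (4.51%), and at 4 loci (8.51%) 2 or more had every one below, against 23 of 576 (3.99%). These shares were not tested. Locus 81399 was counted in both. Apart from it, only locus 82096 held transcripts separated in both directions, with MSTRG.82096.1 at 0.813, 0.276 and 0.315 FPKM in wild-type and 1.43, 1.69 and 0.883 FPKM in *nwgl*, and MSTRG.82096.7 at 0.0973, 0.0338 and 0.184 FPKM in wild-type and 0.0248, 0.0337 and 0.0234 FPKM in *nwgl*. Reads of 1 locus are shared out among its transcripts, so these counts do not come from independent measurements.

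Locus numbers are used here as labels of order. That near numbers mean near positions on the genome is assumed and was not tested, and a difference in numbers is not a distance in bases. In 20 bins of 250 numbers, a bin held from 5 to 41 members, and 7 bins held the 12 called members. The bins with most called members were 81500 to 81749 with 3 of 12 tested (loci 81531 and 81713), then 81250 to 81499 with 2 of 15 (locus 81399), 83500 to 83749 with 2 of 14 (locus 83647) and 84250 to 84499 with 2 of 17 (locus 84276). The 3 other bins, 80750 to 80999, 82500 to 82749 and 84000 to 84249, held 1 each (MSTRG.80871.2, MSTRG.82736.2 and MSTRG.84152.1).

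The bins differed in direction. Among bins with 5 or more tested members, the median log2 fold change ran from −1.61 in 80750 to 80999, where the called member and 3 other members were lower throughout, to 1.97 in 81500 to 81749, where locus 81713 supplied most of the members. The 50 members below number 81250 included none with every *nwgl* library above every wild-type library and 8 with every one below, and the 18 members from 84500 on included 0 and 1. The 286 members from 81250 to 84499 held all 49 of the former and the other 25 of the latter, as well as the 29 transcripts at 0 in wild-type. These boundaries were drawn after the values were seen. Transcripts at 0 in wild-type fell in 9 bins and transcripts at 0 in *nwgl* in 9 bins, 4 bins held both, and 6 held neither. Of the 4 bins that held both, 83500 to 83749 had 5 of the first kind (locus 83647) and 4 of the second (loci 83634 and 83678), and in each of the other 3 at least 1 of the kinds had a single transcript.

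**Figure D4:**
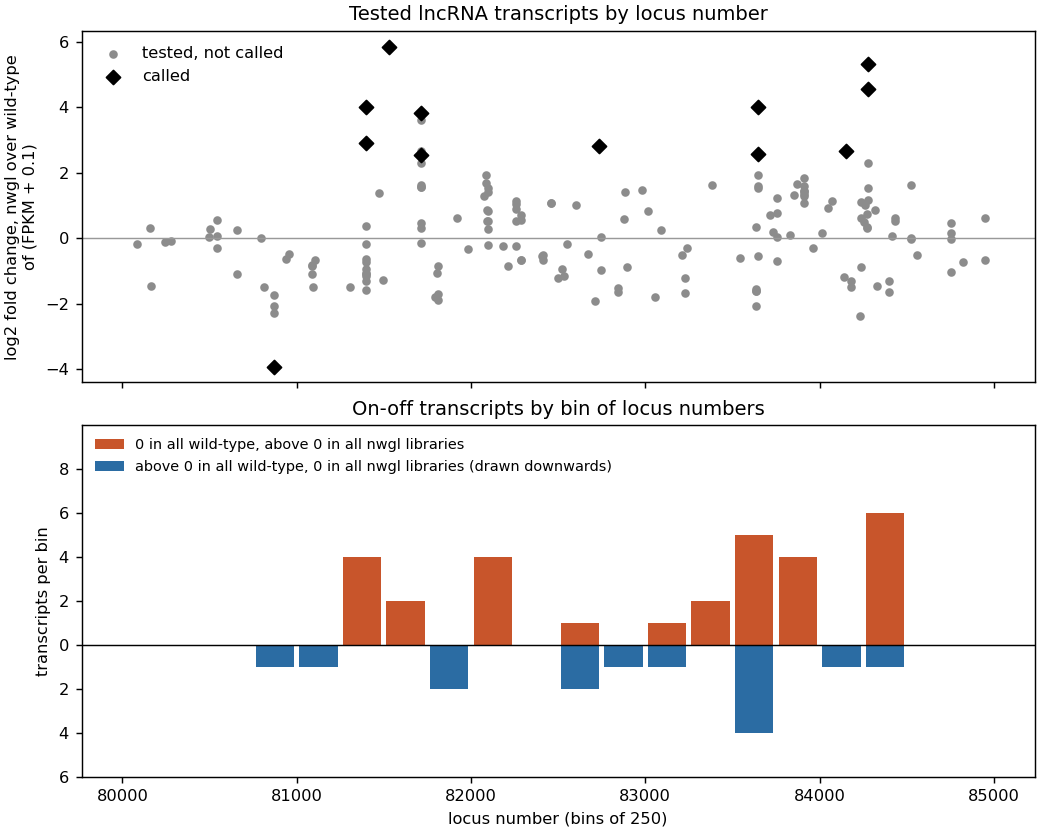
Top, log2 fold change of (FPKM + 0.1) in *nwgl* over wild-type for the 178 tested members against locus number, with the 12 called members as diamonds. Bottom, the number of transcripts per bin of 250 locus numbers that were 0 in all wild-type and above 0 in all *nwgl* libraries (29, drawn upwards) or the reverse (14, drawn downwards), with no upward bar below 81250 or from 84500 on.

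To relate the lncRNAs to coding genes, the study listed the genes within 100 kb of 35 members from 15 loci, which it had chosen for their difference between these same libraries. The lists held 184 genes, of which 132 were in the gene table and 105 were tested with limma as above. Of these, 8 were called, 5 higher and 3 lower in *nwgl* (7.62%), against 1190 of 24332 tested genes (4.89%, with 3.69% higher and 1.2% lower). At an unadjusted p under 0.05 the shares were 20% and 16.2%. The median log2 fold change was −0.17 over the listed neighbours and −0.04 over all tested genes. Without *nwgl* replicate 1 the count of 8 fell to 4 and without *nwgl* replicate 2 to 5. Without wild-type replicate 2 it was 6, of which 4 were among the 8.

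The study's list of genes within 100 kb of MSTRG.84152.1 held Bol035700, the gene with the lowest adjusted p of all these neighbours. Bol035700 encodes a long-chain-fatty-acyl-CoA reductase, an enzyme that turns fatty acyl-CoA into the fatty alcohols found in wax. Of the 9 wax genes that the study names as changed, it was the only 1 on these lists. The study itself stated that no target of its changed lncRNAs took a direct part in making wax. A link between MSTRG.84152.1 and Bol035700 was not tested. MSTRG.84152.1 itself was at 0.0704, 0.0519 and 0.125 FPKM in wild-type and at 0.8, 1.07 and 1.3 FPKM in *nwgl* (log2 fold change 2.66 ± 0.55, SE, adjusted p = 0.0309, limma). Its call was lost in each fit with 1 library left out. Bol035700 was at 1.01, 0.971 and 0.849 FPKM in wild-type and at 12.4, 22.3 and 18.7 FPKM in *nwgl* (log2 fold change 4.06 ± 0.38, SE, adjusted p = 0.000746, limma). Neither overlapped between the genotypes. The neighbour list of MSTRG.84152.1 held 12 genes, and a further one, Bol035698, was called, at 0.125, 0.309 and 0.122 FPKM in wild-type and 2.25, 3.90 and 4.50 FPKM in *nwgl* (log2 fold change 3.68 ± 0.48, SE, adjusted p = 0.00329, limma). Of the 9 tested genes of this list 6 had an unadjusted p under 0.05, in both directions. The other listed transcripts of locus 84152 were not higher in *nwgl*, with means of 0.14 and 0.0622 FPKM in wild-type and 0.0214 and 0 FPKM in *nwgl*, and the sum of the locus was not called (adjusted p = 0.153, limma).

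Near loci 83634 and 83647, Bol016849 was on both lists and was at 61.3, 11.7 and 2.76 FPKM in wild-type and at 0.0379, 0.278 and 0.305 FPKM in *nwgl* (log2 fold change −5.53 ± 0.97, SE, adjusted p = 0.0126, limma). The wild-type replicates of this gene spread over more than the groups of any other called neighbour, and its call was lost without wild-type replicate 2, without *nwgl* replicate 1 and with no filter on low values (highest adjusted p = 0.0592). Near locus 83647, Bol016841 was at 6.57, 3.45 and 3.27 FPKM in wild-type and at 0.261, 0.151 and 0.449 FPKM in *nwgl* (log2 fold change −3.55 ± 0.48, SE, adjusted p = 0.00397, limma). On the same list Bol016840 was at 0.948, 1.17 and 0.494 FPKM in wild-type and at 3.75, 3.92 and 2.33 FPKM in *nwgl* (adjusted p = 0.0496, limma), and its call was lost with any 1 library left out (highest adjusted p = 0.235). The called neighbours of the risen locus 83647 thus went in both directions.

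Near MSTRG.81531.2, Bol035247 was likewise 0 in each wild-type library and was at 1.93, 0.981 and 3.56 FPKM in *nwgl* (adjusted p = 0.00324, limma). At locus 83385 both transcripts were 0 in wild-type, and in *nwgl* MSTRG.83385.3 was at 0.0136, 0.0429 and 0.141 FPKM and MSTRG.83385.4 at 0.106, 0.257 and 0.306 FPKM (adjusted p of the latter 0.265, limma). Near it, Bol012179 was at 2.92, 1.67 and 2.81 FPKM in wild-type and 9.27, 13 and 7.96 FPKM in *nwgl* (log2 fold change 2.0 ± 0.39, SE, adjusted p = 0.0213, limma). Near locus 81809, Bol029400 was at 1.21, 1.09 and 0.446 FPKM in wild-type and at 0.11, 0 and 0.0685 FPKM in *nwgl* (log2 fold change −2.64 ± 0.58, SE, adjusted p = 0.0324, limma). The call of Bol012179 was lost in 3 and that of Bol029400 in 5 of the 6 fits with 1 library left out (highest adjusted p 0.106 and 0.129). Bol016840 and Bol029400 were not called with a pseudocount of 1 or 0.01 or with no filter on low values. The lists of the other loci, among them the strongly changed 84276, 81713, 80871 and 83911, held no called gene, and 5 of the 66 tested genes of these lists had an unadjusted p under 0.05. In the list of locus 84276, Bol035747 was at 2.21, 1.71 and 0.982 FPKM in wild-type and at 32.6, 103 and 2.54 FPKM in *nwgl* (adjusted p = 0.108, limma), with groups that did not overlap and a wide spread in *nwgl*.

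**Figure D5:**
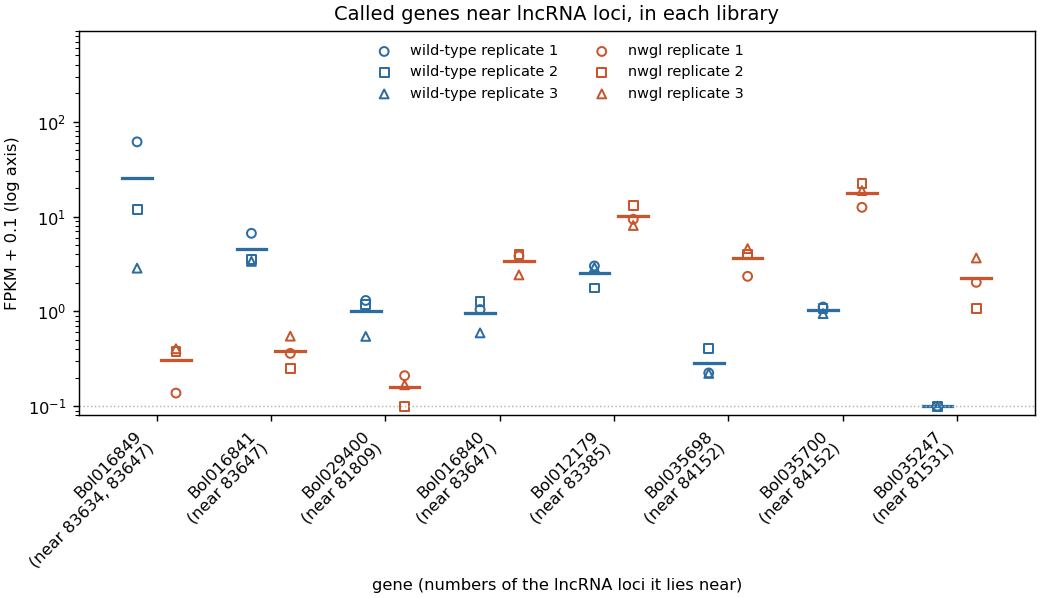
FPKM + 0.1 (log axis) in each library of the 8 called genes from the lists of genes within 100 kb of member lncRNAs, with the numbers of those loci in brackets, open symbols for replicates, bars for genotype means and a dotted line at a value of 0. The 3 genes at the left were lower and the 5 at the right higher in *nwgl*, and no gene overlaps between the genotypes.

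The study also predicted 11 genes as pairing partners in trans for 15 of the members, from sequence complementarity. Of these genes 5 were in the gene table and 3 were tested. Bol036035, the predicted partner of MSTRG.84152.1, was 0 in each wild-type library and at 1.64, 3.40 and 0.696 FPKM in *nwgl* (adjusted p = 0.00626, limma). The predicted partners of 3 transcripts of locus 82076, Bol028016 and Bol030273, were not called, with log2 fold changes of 1.05 and 0.29 (adjusted p = 0.281 and 0.851, limma). Bol030273 is also on the study's list of genes within 100 kb of locus 82085. Bol027991 and Bol036106 were above 0 in 1 *nwgl* library each. These genes were looked up after the values of the lncRNAs were known.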

How the data were processed

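RNA was read from directional libraries on an Illumina HiSeq. The authors filtered the reads, aligned them with HISAT2 to the Bolbase cabbage genome, assembled transcripts and deposited FPKM values made with StringTie 1.3.1, for 31497 genes and for 4459 lncRNAs. As lncRNAs the study kept unknown transcripts of at least 200 bp with at least 2 exons and an FPKM of at least 0.1 that 4 coding predictors called non-coding. Members were read by locus number. Genotype and replicate came from the labels, and no column was left unassigned. Transcripts, locus sums and genes were each fitted as a whole table with limma 3.58.1 in R 4.3.3 (lmFit, eBayes with trend) on log2(FPKM + 0.1), leaving out those whose mean FPKM was under 0.1. Fold changes on that scale understate those of low features, and no fold is given against a genotype at 0 throughout. SDs are sample SDs. Because FPKM are not counts, no count model was run, and no ratio between values of low genes recurred in more than 12 genes of 2904 to 3310 per pair of libraries, so the relative depth of the libraries could not be read and remains unknown. The limma p values set each difference between genotypes against the spread among these libraries alone, moderated over all tested rows. The fit was run before use on simulated data with normal noise on the log2 scale. That simulation did not model the division of reads among transcripts or a genotype at 0 throughout, so it says nothing about these.

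The text names every called member, the 12 on-off members with the highest mean FPKM in each direction, the 10 members with the highest mean FPKM, the members that the study listed as different on these libraries, loci with at least 2 called or on-off members, called neighbouring genes and the wax gene among the neighbours. The other on-off members and the other transcripts of those loci are given by counts, ranges or the plots. Members, lists and tests were chosen with earlier results of these data known. Other pseudocounts (1 and 0.01), filters (none, and a mean FPKM of 1), scalings, a fit without trend, a replicate block, no minimum fold change, each library left out, other definitions of on and off, and other bins were tried. Gene names beyond those the study gives, sequences, chromosome positions and leaf marker genes were not analysed here.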

Additional observations from a re-analysis of the deposited data

How the results depend on the processing

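Of the 12 called members, 5 were called with log2(FPKM + 1). A mean FPKM of at least 1 was reached by 5 of the 12, and these 5 were called with that filter, which left the others untested, while the other settings on the full set of libraries gave 9 to 13. With 1 library left out there were 5 to 7 called members, not all of them among the 12. Called loci were then 4 to 9 against 10, and called neighbouring genes 4 to 9 against 8. With no filter on low values 5 neighbouring genes were called. The log2 fold changes of the called members, called loci and called neighbouring genes kept their sign under each setting that gave them a value. The replicate numbers were not taken as pairs, since the deviations of same-numbered lncRNA libraries correlated at 0.00542, 0.0585 and 0.0935 and not every library correlated best with its own number. With the replicate block, 9 of the 12 members, 10 of the 10 loci and 7 of the 8 neighbouring genes were called, with 1 further gene.

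The log2 difference of the members' summed FPKM was 0.45, and 0.34 to 0.56 with 1 library left out. The mean log2(FPKM + 0.1) of the tested members in place of the sum differed by 0.21, and leaving out the loci called (an alternative chosen after seeing the data) gave −0.0054. Of the 43 on-off members, 18 remained when on meant at least 0.1 FPKM in each library, and 16 loci were on-off as a whole. On-off members fell in 14 of 20 bins, against 7 for called ones. The reads behind each value are not known, so no counting error can be given for these values, most of which were under 1 FPKM.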
